A study of Homo sapiens with 6 samples.

Results

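The genes described here lie on the long arm of chromosome 12, from 40 to 90 Mb on the human build hg38. Their transcript levels were measured in 3 related lung cancer lines. The members were chosen by position and by level: a gene had to start inside the window and to reach 1 TPM (a level scaled for transcript length and for the library total) in at least 2 of the 6 libraries. Of 503 genes listed in the window, 283 reached that level and 220 did not. From the 283, 41 were left out by name: 29 by prefix (keratins, HOXC genes, ribosomal proteins, respiratory chain subunits and LINC transcripts), 1 antisense transcript, and 11 single genes. This left 242 members of 14195 genes tested and 26485 genes listed. By the RefSeq gene types, 223 members are protein-coding, 7 are long non-coding RNAs, 4 are transcribed pseudogenes, 4 are small nucleolar RNAs and 4 are microRNA genes. The level filter used the values themselves, and 8 members reached it in a single line, TSPAN8 and LRRIQ1 in PC9 and ENDOU, INHBE, MSRB3, CPM, BEST3 and PTPRB in PC9-AMG.

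The 3 lines were parental PC9, a lung adenocarcinoma line that carries an activating EGFR mutation, and the derived lines PC9-BrM4 and PC9-AMG, each with 2 libraries from ordinary culture and no added agent named. From earlier work PC9-BrM4 is known as a brain-metastatic subline, although the labels do not say so, and the meaning of AMG is not given in the labels. Each group is 1 line, so a difference between groups is a difference between these lines. The labels do not say that the libraries came from separate cultures, so p-values measure the spread between these libraries only, and that spread may be technical.

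Neighbouring genes on a chromosome arm need not share a function, and this stretch holds a mixed set. It contains the tubulin cluster, the cyclin-dependent kinases CDK2 and CDK4, receptors and signalling factors such as LRP1 and STAT6, the chromatin protein HMGA2 and the kinase adaptor FRS2. In other tumours the stretch around CDK4 and HMGA2 is well known for gene amplification. Levels in a pool of cells average over the cells, so fewer cells with a transcript and less of it per cell cannot be told apart.

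Between 2.66 and 4.39 gigabases were aligned per library, with both PC9-AMG libraries the deepest, and 13455 to 13764 genes reached 1 TPM. The epithelial marker EPCAM lay between 665 and 726 TPM. KRT8, a keratin and so of a prefix left out above, was at 3721 and 3748 TPM in PC9. It was at 3085 and 3119 TPM in PC9-BrM4 and 4615 and 4870.4 TPM in PC9-AMG. The keratins KRT18 and KRT19 were also lowest in PC9-BrM4, whereas EPCAM and the epithelial marker CDH1 were higher there than in PC9. Of 3 fibroblast markers, COL1A1 was at 14.4 and 14.8 TPM in PC9-AMG against 3.68 to 5.02 TPM elsewhere, PDGFRB reached at most 0.246 TPM, and COL3A1 was at or near 0 throughout. Of the leukocyte markers, CD68, which lysosomes of other cells also carry, was at 39.9 to 49.2 TPM, PTPRC at 0.150 TPM or less, and CD3E was listed at 0 in 5 libraries. Endothelial markers summed to 4.17 and 4.49 TPM in PC9, 2.32 and 2.25 TPM in PC9-BrM4 and 6.04 and 5.24 TPM in PC9-AMG. The part of depth and of these markers in the results below was not tested. Within a line, the median absolute log2 difference between the 2 libraries over the members was 0.061 for PC9, 0.079 for PC9-BrM4 and 0.090 for PC9-AMG, and no member had the same non-zero value in both.

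PC9-BrM4 was lower than PC9 for most members of the window. In the limma test across all genes, 194 of the 242 members (80.2%) were lower in PC9-BrM4, against 23.1% of all tested genes, and 7 were higher, against 23.4%. The other 41 did not pass an adjusted p of 0.05. The log2 difference, taken on log2(TPM + 1) here and below, was below 0 for 226 members, and medians in parentheses below are of these differences. Its median was -0.48, with the middle of the distribution from -0.66 to -0.31. The median corresponds to a value of TPM + 1 that is 0.717 times that in PC9. Over all tested genes the median was -0.0016 and the middle of the distribution ran from -0.21 to 0.20. The fall was therefore moderate in most members: 18 reached a log2 of -1 or below, and 2 reached 1 or above. Both PC9-BrM4 libraries lay below both PC9 libraries for 212 members, against 37.8% of all tested genes, and above them for 11, against 37.4%. These counts describe a window chosen with earlier results of these data known and carry no test of the window.

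**Figure D1:**
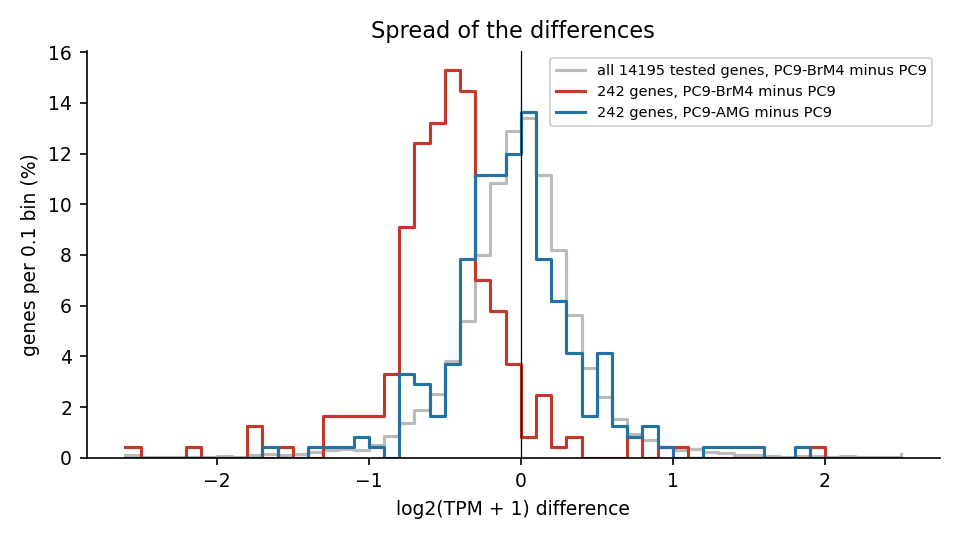
Percentage of genes in bins of 0.1 of the log2(TPM + 1) difference, with values past the ends of the axis put in the end bins. The red line (the 242 genes, PC9-BrM4 minus PC9) is moved to the left of the grey line (PC9-BrM4 minus PC9 over the 14195 tested genes), with a median of -0.48, and the blue line (the 242 genes, PC9-AMG minus PC9) lies around 0, with a median of -0.052.

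The median was below 0 in each 10 Mb interval of the window. From 40 to 50 Mb 42 of 59 members were lower in PC9-BrM4 (median -0.41), and from 50 to 60 Mb, the most gene-rich interval, 96 of 115 (median -0.51). From 60 to 70 Mb 22 of 31 members were lower (median -0.42), but unevenly: from 60 to 65 Mb 4 of 11 were lower and 3 higher (median -0.25), and from 65 to 70 Mb 18 of 20 were lower and 0 higher (median -0.47). Lower members numbered 22 of 23 from 70 to 80 Mb (median -0.62) and 12 of 14 from 80 to 90 Mb (median -0.62). No member from 70 to 90 Mb was called higher. In the order of start positions, the longest unbroken runs of members called lower were 27 genes from TMEM19 to POC1B, 22 genes from CALCOCO1 to IKZF4 and 18 genes from ZCRB1 to ENDOU. These runs skip the names left out of the window. From 50 to 55 Mb 52 of all 69 tested genes were lower and 7 higher, against 40 and 0 of the 46 members. The run length to be looked for with 80.2% of members called lower was not computed.

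Of the other 460 tested genes of chromosome 12, 147 were lower and 81 higher in PC9-BrM4, with a median of -0.078. That value pools intervals on both sides of the window, and the difference between the sides was not tested. Between 10 and 40 Mb the 10 Mb intervals had medians of -0.25, -0.26 and -0.24, with 50.9%, 55.9% and 42.9% of their genes called lower, and ranked 20, 19 and 22 from the lowest of the 289 intervals described below. From 100 Mb on, the medians of such intervals lay between -0.0076 and 0.099. The edges were not sharp: all 4 tested genes from 35 to 40 Mb were lower (median -0.54), among them SLC2A13 with a log2 difference of -0.63 and KIF21A of -0.31, and above 90 Mb, BTG1 had one of -1.05 and EEA1 of -0.43. The 13 tested genes from 90 to 95 Mb had a median of -0.43, those from 95 to 100 Mb -0.12 and those from 100 to 105 Mb 0.038. Of the names left out of the window, 27 of 41 were lower and 7 higher (median -0.42). Among 289 intervals of 10 Mb across the genome with at least 10 tested genes, the 5 intervals of this window, with all their tested genes, ranked 1, 2, 3, 5 and 7 from the lowest median. Outside the window 2 intervals reached -0.40 or below, from 80 to 90 Mb and from 110 to 120 Mb on chromosome 7, at -0.47 and -0.42. This ranking is a description, since the window was chosen with earlier results known.

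**Figure D2:**
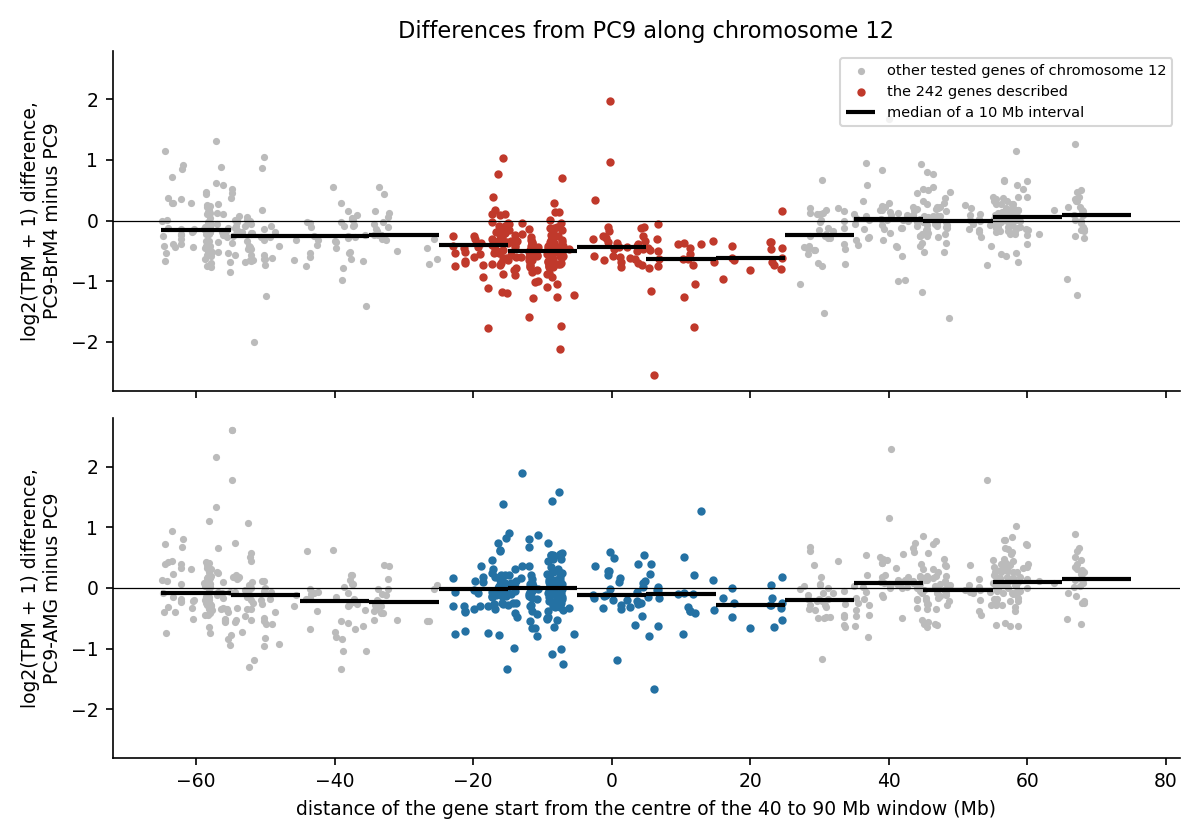
Difference in log2(TPM + 1) from PC9 for each tested gene of chromosome 12, against the distance of its start from the middle of the window in Mb, with values past 2.6 drawn at 2.6. In the upper panel (PC9-BrM4) the medians of 10 Mb intervals, drawn as black bars, reach -0.62 in the window and lie near 0 at the right end of the chromosome. In the lower panel (PC9-AMG) the bars in the window lie between 0.0020 and -0.28.

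The difference was shared by both libraries of PC9-BrM4. Relative to the PC9 mean, the members' median was -0.49 in the first PC9-BrM4 library and -0.45 in the second, and it was -0.028 and -0.073 in the PC9-AMG libraries. The PC9 libraries themselves lay at 0.0095 and -0.0095. The summed level of the 242 members was 19712 and 19706 TPM in PC9, 14815 and 14678 TPM for PC9-BrM4, and 18839.6 and 19029.5 TPM in PC9-AMG. Both PC9-BrM4 libraries lay below all 4 other libraries for 182 members (75.2%), against 21.5% of all tested genes and 26.7% of the rest of chromosome 12.

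**Figure D3:**
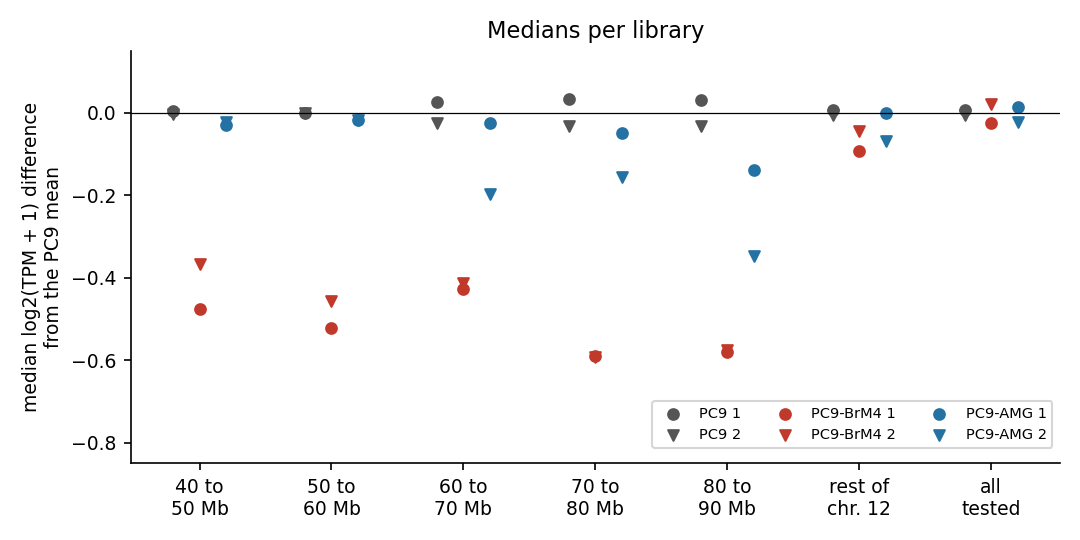
Median difference of each library from the PC9 mean in log2(TPM + 1), for members in 10 Mb intervals, the rest of chromosome 12 and all tested genes, with circles for replicate 1 and triangles for replicate 2. Both PC9-BrM4 libraries lie between -0.37 and -0.59 in every interval of the window, and the PC9-AMG libraries reach -0.14 and -0.35 from 80 to 90 Mb.

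On the log2(TPM + 1) scale the median fall was much the same at all levels and on both strands. That scale understates changes of low genes, so equal medians do not stand for equal fold changes across levels. Members under 5 TPM on average had a median of -0.47 (52 genes), those from 5 to 20 TPM -0.51 (75 genes), those from 20 to 60 TPM -0.45 (63 genes) and those from 60 TPM -0.49 (52 genes). The share called lower was 53.8% in the lowest of these groups and 92.3% in the highest, against 25.7% and 23.3% of all tested genes at those levels. The median was -0.51 over 119 members of the plus strand and -0.45 over 123 of the minus strand. Of the 7 long non-coding RNAs 6 were called lower, of the 4 transcribed pseudogenes all 4, of the 4 microRNA genes 1, and of the 4 small nucleolar RNAs 0 were lower and 1 was higher. These small nucleolar RNAs and microRNA genes lie within longer host genes, so reads of the host can count toward them.

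The most abundant members fell as the rest did. TUBA1B, an alpha-tubulin and subunit of microtubules, was at 2419.5 and 2455 TPM in PC9, 2019.8 and 2008 TPM in PC9-BrM4 and 2118 and 2329.8 TPM in PC9-AMG. Its near-identical relatives TUBA1C and TUBA1A lie beside it, so reads may be shared and the split between them is uncertain. NACA, which binds nascent chains at the ribosome, was at 1312 and 1274 TPM in PC9, 1007 and 1001 TPM in PC9-BrM4 and 1304 and 1333 TPM in PC9-AMG. The myosin light chain MYL6 was at 1006 and 1075 TPM in PC9, 741 and 691 TPM in PC9-BrM4 and 1031 and 1094 TPM in PC9-AMG. In each of these 3 genes the PC9-BrM4 libraries were the lowest pair and did not overlap the others. TMBIM6, a calcium-handling protein of the endoplasmic reticulum, had the largest difference among the 6 most abundant members (log2 -0.62 ± 0.036, limma adjusted p = 2.15e-05, where the value after ± is limma's standard error throughout). The differences of the other 5 were -0.21 for TUBA1C, -0.28 for TUBA1B, -0.36 for NACA, -0.41 for the chaperone partner PTGES3 and -0.54 for MYL6, and all 6 passed. TUBA1C no longer passed without PC9 replicate 2 (log2 -0.19) or PC9-BrM4 replicate 2 (log2 -0.17).

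Secreted factors, receptors and signalling proteins gave several of the largest falls. Of the 22 listed members 19 were lower in PC9-BrM4 and 0 were higher (median -0.56). Counts of this and the following lists stand beside 80.2% of all members and 23.1% of all tested genes called lower. The lists were not compared with each other. AMIGO2, an adhesion protein of the leucine-rich repeat family, was at 130.3 and 135 TPM in PC9, 38.6 and 37.4 TPM in PC9-BrM4 and 84.7 and 73.6 TPM in PC9-AMG. The 3 lines did not overlap, with PC9-BrM4 lowest and PC9-AMG between (log2 -1.78 ± 0.069, limma adjusted p = 4.08e-06 for PC9-BrM4 against PC9). IGFBP6, a secreted binding protein for insulin-like growth factors, was at 193 and 206 TPM in PC9, 66.5 and 64.4 TPM in PC9-BrM4 and 253 and 259 TPM in PC9-AMG, and here PC9-AMG was the highest (log2 -1.59 ± 0.048, limma adjusted p = 1.26e-06 for PC9-BrM4 against PC9). LRP1, an endocytic receptor, was at 13.5 and 13.0 TPM in PC9, 4.41 and 5.65 TPM in PC9-BrM4 and 8.94 and 8.95 TPM in PC9-AMG. It followed the order of AMIGO2 (log2 -1.25 ± 0.11, limma adjusted p = 0.000116).

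Other members of this group fell by less. PTPRR, a phosphatase that acts on MAP kinases, was at 14.3 and 16.2 TPM in PC9 and 6.30 and 6.25 TPM in PC9-BrM4, and DGKA, a diacylglycerol kinase, was at 33.7 and 35.1 TPM in PC9 and 17.8 and 18.9 TPM in PC9-BrM4. KITLG, the ligand of the KIT receptor, was at 25.9 and 23.2 TPM in PC9 and 14.8 and 14.1 TPM in PC9-BrM4. FRS2, the adaptor of fibroblast growth factor receptors, had a log2 difference of -0.47 and TBK1, a kinase of innate immune signalling, at -0.36, both called lower. IRAK4, a kinase below Toll-like receptors, had a log2 difference of -0.70 and the activin receptor ACVR1B at -0.61, also called lower. The 3 members that did not pass were the adenylyl cyclase ADCY6 (log2 -0.093), the activin subunit INHBE (log2 0.14) and RASSF3 (log2 -0.17).

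The stretches of 250 bases before the RefSeq start of AMIGO2, LRP1 and IL23A are printed because the first 2 genes are among the large falls and the last fell in PC9-BrM4 and rose in PC9-AMG. The sequences are from RefSeq on GRCh38.p14, each on the strand of its gene. AMIGO2 is chr12:47079952-47080201 on the minus strand, LRP1 is chr12:57128233-57128482 on the plus strand and IL23A is chr12:56338634-56338883 on the plus strand. Capitals mark matches on either strand to any of 5 short motifs: the GC box, spelled GGGCGG, the CCAAT box, the TATA box, spelled TATAAA, the letters of an AP-1 site, spelled TGANTCA, and the E-box, spelled CACGTG.
AMIGO2: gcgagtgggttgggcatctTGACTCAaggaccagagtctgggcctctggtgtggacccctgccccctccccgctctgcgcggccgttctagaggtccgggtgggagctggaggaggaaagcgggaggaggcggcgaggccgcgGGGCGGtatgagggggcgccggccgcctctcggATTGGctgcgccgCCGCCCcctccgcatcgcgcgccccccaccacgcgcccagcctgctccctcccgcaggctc
LRP1: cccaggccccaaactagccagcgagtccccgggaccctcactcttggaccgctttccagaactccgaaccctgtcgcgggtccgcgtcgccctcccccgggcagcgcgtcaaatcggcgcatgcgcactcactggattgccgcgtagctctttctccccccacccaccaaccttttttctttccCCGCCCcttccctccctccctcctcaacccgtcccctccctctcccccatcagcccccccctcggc
IL23A: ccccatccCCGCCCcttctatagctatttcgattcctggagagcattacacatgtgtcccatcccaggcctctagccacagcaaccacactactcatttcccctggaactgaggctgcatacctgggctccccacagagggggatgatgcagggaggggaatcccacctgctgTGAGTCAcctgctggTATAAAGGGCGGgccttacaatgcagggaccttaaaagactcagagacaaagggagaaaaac
In AMIGO2 the AP-1 letters begin 231 bases before the start, and GC boxes begin at 107 and 61 bases. LRP1 has 1 match, the GC box at 66 bases. In IL23A the TATA box begins at 62 bases and runs directly into the GC box that begins at 56 bases, and the AP-1 letters begin at 77 bases. A match is a description of letters and not of a bound site.

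The table of promoters held 184 of the 242 members. GGGCGG was present in 71.2% of them, in 71.2% of the 156 among them that were lower in PC9-BrM4, and in 42.5% of all 34943 promoters of the table. CCAAT was found in 35.3% of members, 39.1% of the lower ones and 32.0% of all, and TATAAA in 5.98%, 5.77% and 10.8%. TGANTCA was found in 4.89%, 5.13% and 6.59%, and CACGTG in 13.6%, 14.1% and 6.32%, in the same order. The lower members make up most of the members with a promoter, so their shares are not independent of those of all members. The median GC content was 63.2% for members and 58.0% for all promoters of the table. The median number of CpG (C followed by G) was 19.5 for members and 11 for all promoters. Members passed a level filter, whereas the table holds promoters of genes at any level, so the 2 sets are unlike. Whether these shares are particular to the window was not tested.

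The cell cycle and DNA replication or repair list had 12 of 12 genes lower in PC9-BrM4, beside 80.2% of all members. The median of the 12 was -0.64. CDK4, the G1 kinase that phosphorylates RB, was at 247 and 253 TPM in PC9, 180.2 and 178 TPM in PC9-BrM4 and 219 and 230.0 TPM in PC9-AMG. CDK2, the kinase of S phase entry, was at 68.3 and 73.1 TPM in PC9, 46.4 and 47.3 TPM in PC9-BrM4 and 63.6 and 63.7 TPM in PC9-AMG. In both kinases PC9-BrM4 was lowest without overlap. E2F7, a repressor of the E2F family, had the largest difference of the group (log2 -1.04 ± 0.076, limma adjusted p = 5.74e-05), with 20.7 and 19.9 TPM in PC9 and 8.96 and 9.76 TPM in PC9-BrM4. TROAP, a spindle protein, had a log2 difference of -0.87, ESPL1, the separase, at -0.75 and the uracil glycosylase SMUG1 at -0.82. The smallest difference was that of TIMELESS, a replication fork protein (log2 -0.30).

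Of 15 chromatin regulators 13 were lower and 0 higher (median -0.37). NAP1L1, a histone chaperone, was at 404 and 386 TPM in PC9, 262 and 249.9 TPM in PC9-BrM4 and 322 and 315 TPM in PC9-AMG. YEATS4, a reader of acetylated histones, had the largest difference (log2 -0.74 ± 0.085, limma adjusted p = 0.000421). HMGA2, an architectural DNA-binding protein of embryonic and tumour cells, was at 57.2 and 54.7 TPM in PC9, 43.9 and 42.5 TPM in PC9-BrM4 and 26.5 and 21.9 TPM in PC9-AMG, so that its lowest line was PC9-AMG. The SWI/SNF subunits SMARCC2, SMARCD1 and ARID2 had log2 differences of -0.65, -0.37 and -0.44, each called lower. The members that did not pass were the methyltransferase KMT2D (log2 -0.31), whose PC9-BrM4 libraries stood apart from each other at 12.8 and 17.7 TPM, and YAF2 (log2 -0.25).

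Of 18 transcription factors and cofactors 14 were lower in PC9-BrM4 and 1, VDR, was higher (median -0.41). STAT6, which carries interleukin-4 signals to the nucleus, was at 63.5 and 66.2 TPM in PC9, 30.2 and 31.6 TPM in PC9-BrM4 and 65.6 and 67.7 TPM in PC9-AMG. The PC9-AMG libraries overlapped those of PC9, and the PC9-BrM4 libraries lay well below both (log2 -1.04 ± 0.052, limma adjusted p = 1.07e-05). RARG, a retinoic acid receptor, was at 79.8 and 79.9 TPM in PC9 and 47.2 and 49.1 TPM in PC9-BrM4. SP1, a general activator that binds GC boxes, had a log2 difference of -0.42, the cyclin CCNT1 at -0.53 and ATF1 at -0.36, all called lower. NR4A1, an immediate early nuclear receptor, did not pass in this comparison (log2 -0.034).

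Genes for RNA processing and translation fell in 20 of 26 cases and rose in 0 (median -0.42). HNRNPA1, a splicing regulator with many processed copies in the genome, was at 489.5 and 462 TPM in PC9, 320.1 and 312 TPM in PC9-BrM4 and 407 and 429 TPM in PC9-AMG, and its value is uncertain for that reason. EIF4B, an initiation factor, was at 215 and 204 TPM in PC9, 131 and 135 TPM in PC9-BrM4 and 201 and 188 TPM in PC9-AMG, and PCBP2, a poly(C)-binding protein, at 346 and 347 TPM in PC9, 239.8 and 236 TPM in PC9-BrM4 and 263 and 266 TPM in PC9-AMG. Between PC9-AMG and PC9, EIF4B did not pass (log2 -0.11) and PCBP2 was lower (log2 -0.39). PAN2, a deadenylase subunit, had the largest difference of the group (log2 -0.93). PA2G4 (log2 0.015), the splicing factor PRPF40B (log2 0.11) and the tRNA exporter XPOT (log2 -0.10) were among the 6 that did not pass.

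In protein folding and turnover 15 of 16 were lower and 0 higher (median -0.42). DTX3, a ubiquitin ligase of the Deltex family, was at 6.63 and 7.69 TPM in PC9, 0.886 and 0.874 TPM in PC9-BrM4 and 10.4 and 11.5 TPM in PC9-AMG. The 3 lines were far apart, and the difference of PC9-BrM4 from PC9 was the largest of the group (log2 -2.11 ± 0.10, limma adjusted p = 9.91e-06). OS9, a lectin of endoplasmic reticulum quality control, was at 90.6 and 91.6 TPM in PC9, 54.9 and 57.1 TPM in PC9-BrM4 and 85.6 and 86.3 TPM in PC9-AMG. PFDN5, a prefoldin subunit, and CCT2, a chaperonin subunit, had log2 differences of -0.57 and -0.25. FKBP11, a peptidyl-prolyl isomerase, was the member that did not pass (log2 0.091).

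Among 18 cytoskeletal genes 13 were lower and 0 higher (median -0.45). CSRP2, a LIM-domain protein of actin bundles, was at 10.6 and 10.7 TPM in PC9, 2.72 and 2.18 TPM in PC9-BrM4 and 12.1 and 12.9 TPM in PC9-AMG (log2 -1.75 ± 0.10, limma adjusted p = 1.87e-05 for PC9-BrM4 against PC9). ARHGEF25, an exchange factor for small GTPases that lies beside DTX3, was at 2.91 and 2.91 TPM in PC9, 0.182 and 0.154 TPM in PC9-BrM4 and 4.17 and 4.67 TPM in PC9-AMG. Both were lowest in PC9-BrM4 without overlap. LIMA1, an actin-binding protein, did not pass in PC9-BrM4 (log2 -0.059), nor did FMNL3 (log2 -0.086), NCKAP5L (log2 -0.11), TNS2 (log2 -0.14) or RAPGEF3 (log2 0.11).

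Of 15 membrane trafficking genes 14 were lower and 1, TBC1D30, was higher in PC9-BrM4 (median -0.55). TSPAN8, a tetraspanin, was at 5.12 and 4.56 TPM in PC9, was listed at 0 in both PC9-BrM4 libraries, and was at 0.924 and 0.743 TPM in PC9-AMG. CD63, the tetraspanin of late endosomes and exosomes, was at 427 and 425 TPM in PC9, 292 and 286 TPM in PC9-BrM4 and 492 and 509 TPM in PC9-AMG. RAB5B, a GTPase of early endosomes, was at 64.2 and 65.4 TPM in PC9, 37.4 and 39.3 TPM in PC9-BrM4 and 76.6 and 71.8 TPM in PC9-AMG. In CD63 and RAB5B, PC9-AMG was the highest line and PC9-BrM4 the lowest. Of 7 transporters and pumps 6 were lower (median -0.44). SLC38A2, an amino acid transporter, was at 228 and 223 TPM in PC9, 137 and 134 TPM in PC9-BrM4 and 288 and 229.6 TPM in PC9-AMG. SLC16A7, a carrier of monocarboxylates such as pyruvate, was at 3.01 and 2.40 TPM in PC9, 0.612 and 0.542 TPM in PC9-BrM4 and 1.22 and 1.17 TPM in PC9-AMG, and the heme transporter SLC48A1 did not pass (log2 -0.022). The list of cilium and centrosome genes was lower in PC9-BrM4 in 5 of 5 cases (median -0.63), with BBS10 at a log2 difference of -0.45 and LRRIQ1 at -0.81. LRRIQ1 and TSPAN8 reached the level filter in PC9 only, the line where they are highest, so the filter favoured their falls and their calls are no support for either list.

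Among 20 metabolic and glycosylation enzymes 13 were lower and 2 higher (median -0.40). ACSS3, a mitochondrial acyl-CoA synthetase, had the largest fall (log2 -0.96), and the citrate synthase CS, at 183 and 174 TPM in PC9 and 146 and 158 TPM in PC9-BrM4, a small one (log2 -0.23). The 68 members on no list were lower in 50 cases and higher in 3 (median -0.51). Among them, CALCOCO1, a coiled-coil protein known as an autophagy receptor, was at 20.5 and 22.7 TPM in PC9, 7.80 and 9.01 TPM in PC9-BrM4 and 22.1 and 22.2 TPM in PC9-AMG. The long non-coding RNA HOTAIR was at 5.77 and 6.55 TPM in PC9, 2.13 and 2.98 TPM in PC9-BrM4 and 3.65 and 3.37 TPM in PC9-AMG. Both were lowest in PC9-BrM4, CALCOCO1 with PC9-AMG inside the PC9 range and HOTAIR with PC9-AMG between.

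**Figure D4:**
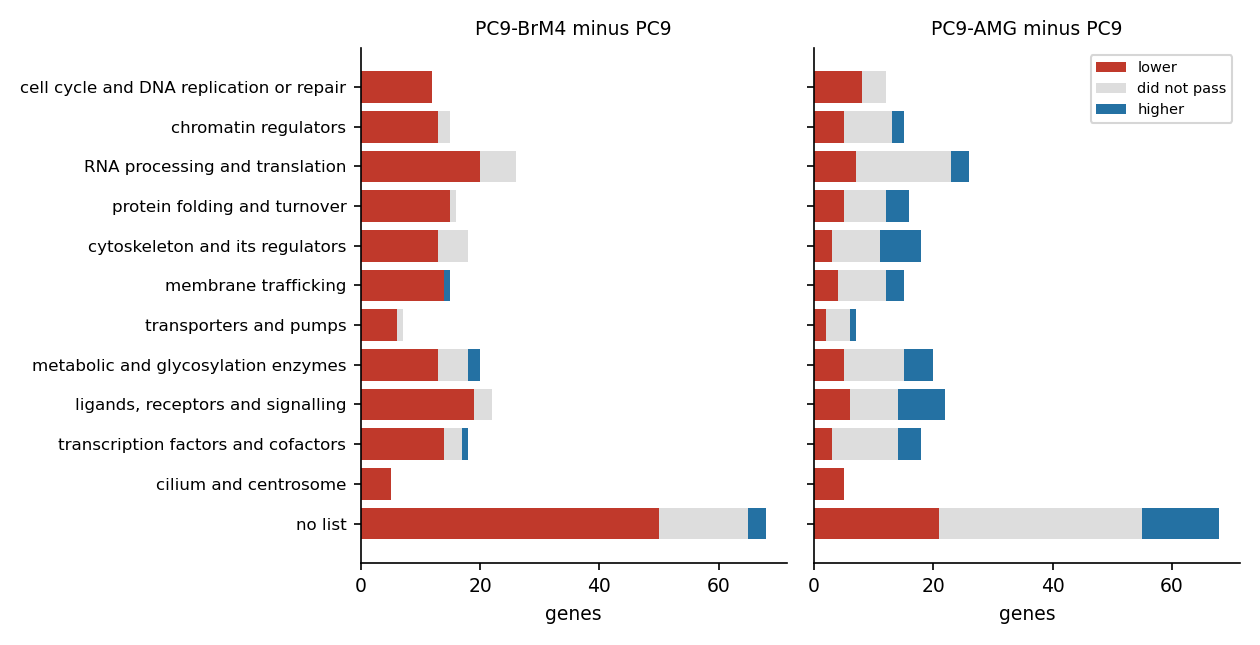
Number of members per functional list that were lower (red), higher (blue) or did not pass (grey) at an adjusted p of 0.05 in limma, for PC9-BrM4 (left) and PC9-AMG (right) against PC9. Red fills most of each bar on the left, including 12 of 12 cell cycle genes, beside 80.2% of all members. Red and blue are mixed on the right, except that the cell cycle list and the cilium and centrosome list have no blue there.

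Against this background, 7 members were higher in PC9-BrM4, and 6 of them are described here. TBC1D30, a GTPase-activating protein for Rab proteins, was at 2.87 and 2.90 TPM in PC9, 6.54 and 6.71 TPM in PC9-BrM4 and 5.03 and 4.73 TPM in PC9-AMG, with both sublines above PC9 (log2 0.97 ± 0.088, limma adjusted p = 0.000143 for PC9-BrM4).

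The other 5 of these were low or changed little. VDR, the nuclear receptor for vitamin D, was at 17.4 and 16.7 TPM in PC9, 21.5 and 24.0 TPM in PC9-BrM4 and 22.3 and 20.6 TPM in PC9-AMG. CYP27B1, the enzyme that makes active vitamin D, was at 2.7 and 2.61 TPM in PC9, 5.39 and 4.55 TPM in PC9-BrM4 and 3.47 and 3.23 TPM in PC9-AMG. VDR was higher than PC9 in both sublines, and CYP27B1 passed in PC9-BrM4 alone (log2 0.71, against 0.25 in PC9-AMG). PPM1H, a protein phosphatase, was at 6.91 and 6.61 TPM in PC9, 8.38 and 9.34 TPM in PC9-BrM4 and 9.16 and 8.78 TPM in PC9-AMG. PRPH, the neuronal intermediate filament peripherin, was listed at 0 in both PC9 libraries and was at 1.31 and 0.804 TPM in PC9-BrM4 and 1.44 and 1.80 TPM in PC9-AMG. The small nucleolar RNA SNORA34 was at 0.588 and 0.511 TPM in PC9, 1.83 and 1.46 TPM in PC9-BrM4 and 1.34 and 1.86 TPM in PC9-AMG and lies inside KANSL2, which was lower in PC9-BrM4 (log2 -0.33).

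**Figure D5:**
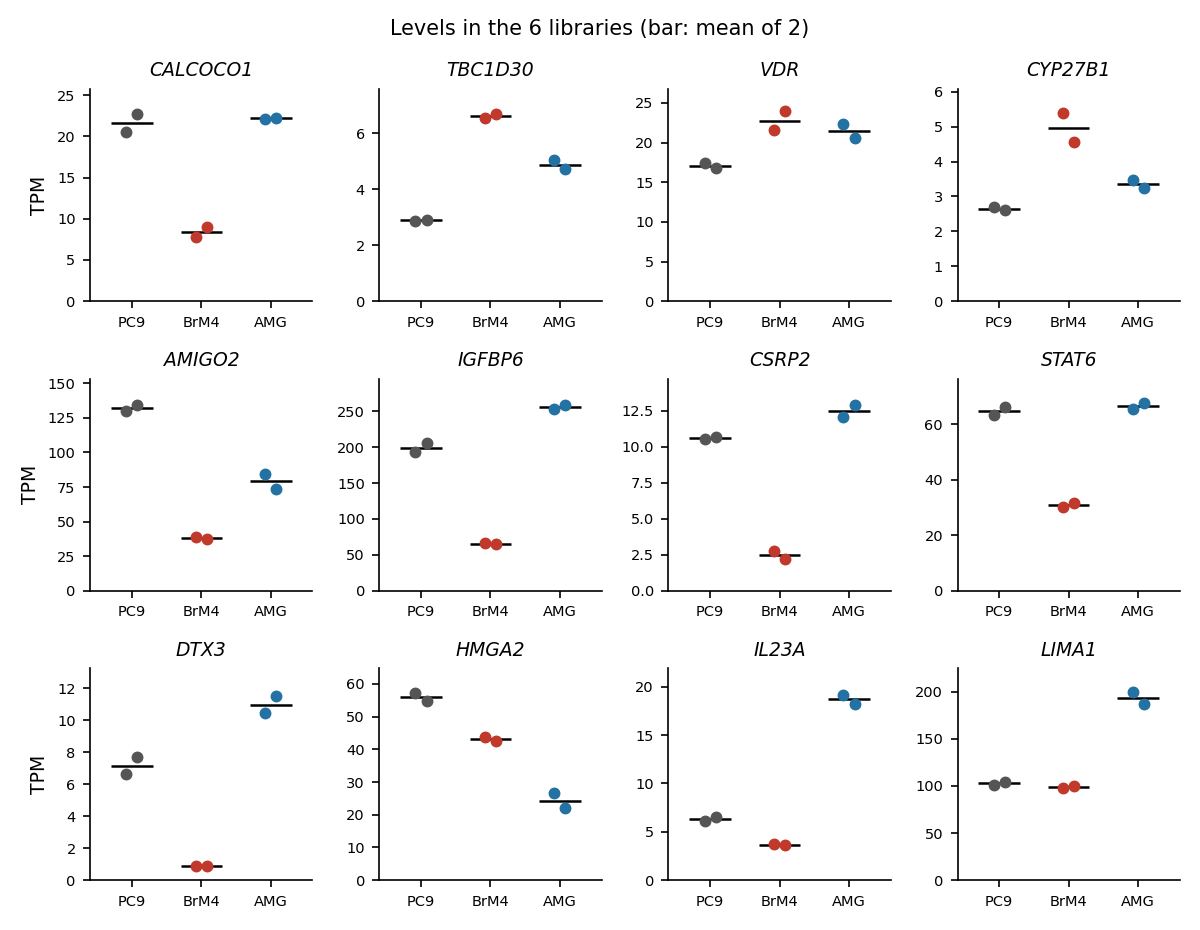
TPM (vertical axis, from 0) of 12 members in the 6 libraries, with points for libraries and bars for the mean of 2. TBC1D30, VDR and CYP27B1 are higher in both PC9-BrM4 libraries than in PC9, and AMIGO2, IGFBP6, CSRP2, STAT6, DTX3 and IL23A are lowest in PC9-BrM4.

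The 14 members from 80 to 90 Mb form a gene-poor interval. Of them 12 were lower in PC9-BrM4, beside 80.2% of all members and 23.1% of all tested genes. ACSS3 was at 7.75 and 7.90 TPM in PC9, 3.52 and 3.57 TPM in PC9-BrM4 and 7.19 and 6.50 TPM in PC9-AMG. TMTC2 and TMTC3, O-mannosyltransferases of the endoplasmic reticulum, had log2 differences of -0.65 and -0.69. The remaining falls were -0.79 for the centriolar gene POC1B, -0.72 for KITLG, -0.62 for METTL25, -0.47 for C12orf29, -0.44 for the calcium pump ATP2B1, -0.41 for CCDC59, -0.35 for the pseudogene MKRN9P and -0.34 for the ciliary gene CEP290, beside LRRIQ1 above. With 1 library left out, MKRN9P did not pass without PC9 replicate 2 (log2 -0.25) or any of the PC9-BrM4 (log2 -0.37 and -0.32) and PC9-AMG libraries (log2 -0.35 for each), and CEP290 did not without PC9 replicate 1 (log2 -0.31), PC9 replicate 2 (log2 -0.38) or PC9-BrM4 replicate 1 (log2 -0.27). Those that did not pass were GALNT4, at 5.69 and 1.42 TPM in PC9 and 3.99 and 3.02 TPM in PC9-BrM4, and its readthrough model POC1B-GALNT4, at 0 and 4.20 TPM in PC9 and 0 and 1.19 TPM in PC9-BrM4. These 2 models overlap POC1B and each other, their values switch between replicates, and they are uncertain. In PC9-AMG 6 of the 14 were lower than PC9, against 27.7% of all tested genes, and 0 were higher, against 27.8% (median -0.26). KITLG was at 16.3 and 14.2 TPM there, as low as in PC9-BrM4, and LRRIQ1, CEP290, POC1B, METTL25 and ATP2B1 were the other 5. LRRIQ1 reached the level filter in PC9 only, so the filter favoured its falls in both sublines. Its calls are no support for the counts of this interval. Without PC9 replicate 1, CEP290 (log2 -0.26), POC1B (log2 -0.26), METTL25 (log2 -0.44) and ATP2B1 (log2 -0.24) no longer passed in PC9-AMG. Without PC9-AMG replicate 2, CEP290 (log2 -0.16), POC1B (log2 -0.29) and ATP2B1 (log2 -0.15) did not, and without PC9-AMG replicate 1 METTL25 did not (log2 -0.43). CEP290 (log2 -0.32) and ATP2B1 (log2 -0.24) also did not pass without PC9 replicate 2, nor CEP290 without either PC9-BrM4 library (log2 -0.29 for each).

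In PC9-AMG the median difference of the window from PC9 was close to 0. In limma 50 members were higher and 74 lower than in PC9, against 27.8% and 27.7% of all tested genes, that is 20.7% and 30.6% of the members, and 118 did not pass. The median was -0.052, against -0.0058 over all tested genes. By intervals, the median was -0.015 from 40 to 50 Mb (-0.34 for the 8 members from 40 to 45 Mb, of which 5 were lower and 0 higher, and -0.0038 for the 51 from 45 to 50 Mb), -0.012 from 50 to 60 Mb, -0.11 from 60 to 70 Mb, -0.10 from 70 to 80 Mb and -0.26 from 80 to 90 Mb. The shares called were not far from the background, and the individual genes moved in both directions.

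The largest rises in PC9-AMG came from several of the lists. IL23A, the specific subunit of interleukin-23, was at 6.12 and 6.49 TPM in PC9, 3.73 and 3.63 TPM in PC9-BrM4 and 19.2 and 18.3 TPM in PC9-AMG (log2 1.43 ± 0.081, limma adjusted p = 1.64e-05 for PC9-AMG against PC9). Its 3 lines did not overlap. NR4A1 was at 1.15 and 1.55 TPM in PC9, 1.56 and 1.04 TPM in PC9-BrM4 and 8.20 and 7.28 TPM in PC9-AMG, and INHBE at 0.299 and 0.299 TPM in PC9, 0.420 and 0.442 TPM in PC9-BrM4 and 3.14 and 2.64 TPM in PC9-AMG. Both were low in PC9 and PC9-BrM4 and reached a few TPM in PC9-AMG. INHBE reached the level filter in PC9-AMG only, so the filter favoured its rise. LIMA1 was at 101 and 104 TPM in PC9, 97.7 and 99.5 TPM in PC9-BrM4 and 199.6 and 187 TPM in PC9-AMG (log2 0.90 ± 0.047, limma adjusted p = 1.22e-05). The microtubule-binding protein NAV3 was at 5.43 and 5.16 TPM in PC9, 3.69 and 3.94 TPM in PC9-BrM4 and 16.2 and 12.4 TPM in PC9-AMG, and GDF11, a ligand of the TGF-beta family, at 6.58 and 6.05 TPM in PC9, 4.37 and 4.54 TPM in PC9-BrM4 and 11.4 and 11.0 TPM in PC9-AMG. For NAV3 and GDF11 PC9-BrM4 was the lowest line and PC9-AMG the highest. ZNF385A (log2 0.87), NCKAP5L (log2 0.83) and TNS2 (log2 0.80) also rose.

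The largest falls in PC9-AMG included genes that fell in PC9-BrM4 as well. HMGA2 had a log2 difference of -1.18 ± 0.086 from PC9 (limma adjusted p = 4.46e-05) in PC9-AMG and -0.37 in PC9-BrM4. LOC100506844, a long non-coding RNA that RefSeq lists as GIHCG, was at 9.92 and 11.5 TPM in PC9, 6.34 and 7.21 TPM in PC9-BrM4 and 4.01 and 3.81 TPM in PC9-AMG. PAN2 had a log2 difference of -1.10 in PC9-AMG and the heterochromatin protein gene CBX5 at -0.79. The RNA-binding ZCRB1 was at 61.5 and 64.5 TPM in PC9, 38.4 and 36.0 TPM in PC9-BrM4 and 36.0 and 37.3 TPM in PC9-AMG, the same in both sublines to within their libraries. PRIM1, the primase subunit that starts DNA synthesis, was at 64.0 and 63.4 TPM in PC9, 46.1 and 49.6 TPM in PC9-BrM4 and 40.5 and 40.3 TPM in PC9-AMG.

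The lists are given by their counts in PC9-AMG, beside the 27.8% of all tested genes called higher and 27.7% called lower, and were not compared with each other. Of 12 cell cycle and replication genes 8 were lower and 0 higher, and of 5 cilium and centrosome genes all 5 were lower, LRRIQ1 among them. Of 18 cytoskeletal genes 7 were higher and 3 lower, and of 22 ligands, receptors and signalling genes 8 were higher and 6 lower. Chromatin regulators had 2 higher and 5 lower of 15, RNA processing 3 and 7 of 26, protein folding 4 and 5 of 16, trafficking 3 and 4 of 15, transporters 1 and 2 of 7, metabolic enzymes 5 and 5 of 20, and transcription factors 4 and 3 of 18. The 68 members on no list had 13 higher and 21 lower. INHBE among the ligands and MSRB3 among the metabolic enzymes, both called higher, reached the level filter in PC9-AMG only. The filter favoured their rises, so their calls are no support for either list. LRRIQ1 among the cilium genes and TSPAN8 among the trafficking genes, both called lower, reached the level filter in PC9 only. The filter favoured these falls, so the calls of LRRIQ1 and TSPAN8 are no support for their lists.

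Set directly beside PC9-BrM4, PC9-AMG was higher for 169 members, against 28.1% of all tested genes, and lower for 7, against 28.0%. The other 66 did not pass, and the median was 0.39. The largest differences toward PC9-AMG were those of DTX3 (log2 2.67 ± 0.10), ARHGEF25 (log2 2.21 ± 0.11), IL23A (log2 2.07 ± 0.081), CSRP2 (log2 1.97 ± 0.10) and IGFBP6 (log2 1.95 ± 0.048), with limma adjusted p from 3.65e-07 to 5.92e-06. Among the members lower in PC9-AMG were HMGA2 (log2 -0.81), LOC100506844 (log2 -0.66), HSD17B6 (log2 -0.46), CYP27B1 (log2 -0.45), TBC1D30 (log2 -0.37) and PRIM1 (log2 -0.24). Over all members 69.8% were higher in PC9-AMG than in PC9-BrM4 and 2.89% lower. Of the cell cycle genes 9 of 12 were higher and 1 lower. Of the ligands and receptors 19 of 22 were higher and 0 lower, and of the cilium genes 1 of 5 was higher. INHBE, among these ligands, and ENDOU were both called higher. These 2 genes reached the level filter in PC9-AMG only, so the filter favoured their rises and their calls are no support for these counts. The same applies to MSRB3, CPM, BEST3 and PTPRB where they were called higher.

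The 3 comparisons share libraries, so the patterns across them are given as counts alone. A fall in PC9-BrM4 was called for 80.2% of members, against 23.1% of all tested genes. Patterns that include this fall can be more frequent among members for that reason alone. A link between the changes of the 2 sublines was not tested. For 154 members (63.6%) PC9-BrM4 was lower than PC9 and PC9-AMG higher than PC9-BrM4, against 12.6% of all tested genes. STAT6, CSRP2, CALCOCO1 and TROAP are of this kind and did not pass between PC9-AMG and PC9. For 69 members (28.5%) both sublines were lower than PC9, against 10.9%, among them AMIGO2, LRP1, KITLG, ZCRB1 and HMGA2. TSPAN8 and LRRIQ1 are also among the 69. They reached the level filter in PC9 only, so the filter favoured this shared fall and they are no support for it. For 32 members (13.2%) PC9-BrM4 was lower and PC9-AMG higher than PC9, against 4.04%, among them IGFBP6, DTX3, IL23A, CD63, RAB5B and GLIPR1. ENDOU, MSRB3 and CPM are also among the 32. They reached the level filter in PC9-AMG only, so the filter favoured this pattern and they are no support for it. ENDOU is also among the 154, where the same applies. A rise in PC9-BrM4 was called for only 7 members, against 23.4% of all tested genes, so few members could share a rise. Of these, VDR, TBC1D30, PPM1H, PRPH and SNORA34 were called higher than PC9 in both sublines. The share of all tested genes with a shared rise was not computed.

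Some values rest on annotation that cannot be resolved from gene tables. Of the 242 members, 31 overlap another gene model on the same strand and 65 overlap one on the opposite strand. The library kit marks strand, but the sources used here do not say whether strand was used in quantification. LOC100652999, listed at 0 in 1 library of each line and at 0 and 8.35 TPM in the PC9 pair, had no usable difference. At the level threshold, BEST3, MIR6505 and PTPRB were the members nearest to it, and MIR616, SYT1 and RASSF9, at 0.981, 0.921 and 0.911 TPM, were just outside.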

How the data were processed

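Messenger RNA of 3 lung cancer lines was sequenced with 2 libraries per line (TruSeq Stranded mRNA, per the labels' protocols). The authors deposited 1 gene table per library with TPM, FPKM and mean coverage (a signal) per gene. Tools named in the submitters' processing notes are HISAT2 2.1.0, StringTie 1.3.4d and bcl2fastq, with the build hg38, and the sources used here give neither the annotation release nor any option. The whole-series table was left aside, since its columns are not named as the sample titles are, and the PC9-AMG tables carry EMG in their names and were assigned by the sample records. TPM fixes each library's total, so values are relative within a library. The ratio of deposited coverage to FPKM gave the aligned bases per library. The tables hold no read counts, so no counting interval is given.

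Lines with the same gene ID were summed. Values were taken to log2(TPM + 1), which understates changes of low genes, and genes with at least 1 TPM in at least 2 of 6 libraries were tested. A model with 1 mean per line was fitted to all 6 libraries in limma 3.58.1 (R 4.3.3) with a mean-variance trend and 3 residual degrees of freedom, with Benjamini-Hochberg adjustment over all 14195 tested genes and a threshold of 0.05. The script was tested on simulated data. No exact test of 2 against 2 libraries can pass 0.05, so none was run.

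The members, the functional lists and the alternatives were chosen with earlier results of these data known. Genes were named by a rule: per comparison the 6 largest rises and 6 largest falls among called members without overlap and with at least 10 TPM in the higher line, all members from 80 to 90 Mb, the 6 most abundant, the leading called members of each list, those nearest the edges and the level threshold, and those that went most against their interval. Further members were named after their values were seen, as examples of their list. 1 member that the rule names is counted but its values are not reported here. Alternatives were another pseudocount (0.1 TPM), no filter, a filter of 5 TPM, FPKM, a shift of library medians, no trend, 2 lines only, a replicate block, each library left out, the left-out names kept, and protein-coding members without same-strand overlap. Replicate numbers are shared between lines but do not pair the samples: the correlations of same-numbered deviations were -0.069, -0.028 and -0.063.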

Additional observations from a re-analysis of the deposited data

Results flagged for a closer look

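Of the members whose highest line averaged 10 TPM or more, 5 were called at least 0.5 lower than PC9 on the log2(TPM + 1) scale in PC9-BrM4 and at least 0.5 higher in PC9-AMG, so that the sublines moved in opposite directions from the parent. The share of all tested genes that meet these cut-offs was not computed. A fall in PC9-BrM4 was called for 80.2% of members, against 23.1% of all tested genes. Such genes can be more frequent among members for that reason alone. The limma test between the sublines used the same libraries as this selection, which already requires the sublines to differ by a wide margin. Its adjusted p-values below are therefore no further support. For DTX3, a ubiquitin ligase, the difference between the sublines was 2.67 (limma adjusted p = 2.09e-06), from -2.11 in PC9-BrM4 and 0.55 in PC9-AMG. For IL23A, the interleukin-23 subunit, it was 2.07 (limma adjusted p = 2.09e-06), from -0.64 and 1.43. For ZNF385A, a zinc finger protein at 8.62 and 10.1 TPM in PC9, 4.08 and 4.28 TPM in PC9-BrM4 and 17.5 and 18.3 TPM in PC9-AMG, it was 1.87 (limma adjusted p = 5.56e-06). For GLIPR1, a secreted or membrane protein of the CAP family at 10.1 and 9.62 TPM in PC9, 3.87 and 3.27 TPM in PC9-BrM4 and 14.8 and 14.1 TPM in PC9-AMG, it was 1.76 (limma adjusted p = 7.08e-06). For RBMS2, an RNA-binding protein at 24.1 and 23.1 TPM in PC9, 13.1 and 13.8 TPM in PC9-BrM4 and 36.8 and 32.9 TPM in PC9-AMG, it was 1.31 (limma adjusted p = 9.43e-06). In each of the 5 genes the 3 lines did not overlap, which the selection also favoured. DTX3 lies beside ARHGEF25, which had the same order of lines.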

How the results depend on the processing

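The count of members lower in PC9-BrM4 than in PC9 (194) was 173 to 190 with each library left out in turn, and 167 in the alternative added after seeing the data, protein-coding members with no same-strand overlap. The count of members higher in PC9-BrM4 (7) was 6 to 8 with a library left out, 4 with a filter of 5 TPM, where fewer genes are tested, and 14 with the left-out names kept. Between PC9-AMG and PC9 the members called higher (50) were 35 to 52 and those called lower (74) 50 to 77 with a library left out. Members higher in PC9-AMG than in PC9-BrM4 (169) were 144 to 165. Members lower in PC9-AMG than in PC9-BrM4 (7) were 6 to 12 with a library left out, the 12 without PC9-BrM4 replicate 1 (the cause was not tested), and 15 with the left-out names kept. With the replicate number as a block, which the data do not bear out as a pairing, the counts were 192 lower and 7 higher in PC9-BrM4, 68 lower and 45 higher in PC9-AMG against PC9, and 165 higher and 7 lower in PC9-AMG against PC9-BrM4. Of 1455 values for 105 named results, 1381 kept their direction and their side of the threshold, 74 no longer passed and 0 reversed. The tables hold no read counts, so what depth limits was not tested.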
